A study of Mus musculus with 24 samples.

Results

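The let-7 guide strands are the arms of the let-7 precursor hairpins that are loaded into Argonaute, and here they comprise the 9 rows named mmu-let-7a-5p, mmu-let-7b-5p, mmu-let-7c-5p, mmu-let-7d-5p, mmu-let-7e-5p, mmu-let-7f-5p, mmu-let-7g-5p, mmu-let-7i-5p and mmu-miR-98-5p, chosen by name from 1908 mature miRNAs in the deposited count table. The mouse prefix mmu is left out below. All 9 were among the 421 miRNAs that passed the filter on low counts. Small RNA had been sequenced in 24 mouse liver libraries, 8 in each of 3 groups, all from C57Bl/6J mice. AM132 livers came from mice fed a high fat diet for 11 weeks and then injected intravenously, on 3 days running at 3.3 mg/kg, with a 16-mer locked nucleic acid (LNA) oligonucleotide complementary to miR-132. AM608 livers came from mice on the same diet and injection schedule that received a 15-mer LNA against the primate miRNA miR-608, the control oligonucleotide. Livers of both groups were taken 7 days after treatment. RCD livers came from age-matched lean mice on regular chow, for which no injection is stated. The targeted miRNA, miR-132-3p, had 0 reads in 8 of 8 AM132 libraries, which allows up to 3 reads in each, against 92 to 341 reads in AM608 and 69 to 339 in RCD. No obese group without an oligonucleotide was analysed, so a difference between AM132 and AM608 can come from either oligonucleotide, and diet and injection cannot be told apart in AM608 against RCD.

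let-7 was found in Caenorhabditis elegans as a regulator of developmental timing, and in vertebrates it has become a large family of miRNAs that mark differentiated tissue. The RNA-binding protein LIN28 blocks the maturation of let-7 precursors, and mature let-7 in turn represses Lin28, Hmga2 and Ras transcripts. In mice, let-7 is also known to repress components of insulin and IGF signalling such as Insr, Igf1r and Irs2, and its forced expression impairs glucose tolerance, so the family is of interest in the obese liver.

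The mature sequences are shown because the members differ by few bases, which bears on how their reads were told apart. They are given 5′ to 3′ from RefSeq (GRCm38.p6, matched by name for 9 of 9 members), with the seed, bases 2 to 8, in capitals.
let-7a-5p: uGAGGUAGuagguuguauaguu
let-7b-5p: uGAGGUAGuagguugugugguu
let-7c-5p: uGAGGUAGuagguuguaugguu
let-7d-5p: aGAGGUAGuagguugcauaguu
let-7e-5p: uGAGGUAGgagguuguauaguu
let-7f-5p: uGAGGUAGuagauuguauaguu
let-7g-5p: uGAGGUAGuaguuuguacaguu
let-7i-5p: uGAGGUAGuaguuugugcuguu
miR-98-5p: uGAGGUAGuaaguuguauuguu
All 9 share the seed GAGGUAG and a length of 22 nt. Counted from the 5′ end of let-7a-5p, let-7c-5p carries the change A19G, let-7e-5p U9G and let-7f-5p G12A, and each therefore differs from let-7a-5p by 1 base. let-7b-5p (A17G and A19G) differs from let-7c-5p by 1 base. let-7d-5p (U1A and U16C), let-7g-5p (G12U and U18C), miR-98-5p (G11A and A19U) and let-7i-5p (G12U, A17G, U18C and A19U) lie at least 2 bases from every other member. In 4 pairs of members a single miscalled or tolerated base could thus move a read from one row to another, and the rule by which reads were assigned is not given in the sources used here. Of 1679 mature names in the RefSeq table, 11 carry this seed. The other 2 were scarce. miR-1961 had 2 reads over all libraries, and let-7k averaged 1.15 CPM for AM132, 1.26 for AM608 and 1.64 for RCD. let-7j (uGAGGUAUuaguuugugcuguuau) shares the name but not the seed, ending it in U, and averaged 4.58 CPM for AM132, 4.38 for AM608 and 4.15 for RCD.

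The sequences of the 9 guide strands occur in 12 hairpins on 7 chromosomes of GRCm38, so let-7a-5p, let-7c-5p and let-7f-5p each have 2 possible sources that the counts cannot separate. Mirlet7a-1 (chromosome 13, 48538179 to 48538272), Mirlet7f-1 (48537829 to 48537917) and Mirlet7d (48536012 to 48536114) lie on the minus strand in exons of the lincRNA 6720427I07Rik. Mirlet7c-2 (chromosome 15, 85706603 to 85706697) and Mirlet7b (85707319 to 85707403) lie on the plus strand in an exon of the non-coding transcript Lncppara. Mirlet7f-2 (chromosome X, 151912346 to 151912428) and Mir98 (151913214 to 151913321) are intronic to Huwe1, and Mirlet7g (chromosome 9, 106178840 to 106178927) is intronic to Wdr82. Of the remaining hairpins, all but Mirlet7i sit beside miRNAs of the miR-99/100 and miR-125 families. Mirlet7c-1 (chromosome 16, 77599657 to 77599750) is in an intron of Mir99ahg with Mir99a, Mirlet7e (chromosome 17, 17830352 to 17830444) is in an intron of Spaca6 next to Mir125a, and Mirlet7a-2 (chromosome 9, 41536716 to 41536811) lies between Mir100 and Mir125b-1. Mirlet7i (chromosome 10, 122985640 to 122985724) overlaps an exon of the transcribed processed pseudogene D630033A02Rik.

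The family made up a large share of hepatic miRNA counts. Libraries held 5926983 to 8734721 miRNA counts for AM132, 6855571 to 8532049 for AM608 and 5689143 to 8380591 for RCD. The 9 rows together took 14.5 ± 1.18% of them for AM132, 16.0 ± 0.727% for AM608 and 12.98 ± 1.20% for RCD (SD, n = 8 each). The least counted member, let-7e-5p, had at least 1566 reads in every library, so counting error was small beside the spread between libraries. Scaled by trimmed mean of M values (TMM) factors and expressed as counts per 1000000 (CPM), the sum was 159909 ± 10919 for AM132, 149027 ± 8943 for AM608 and 126725 ± 16627 for RCD. The sum ran from 140692 to 172888 CPM for AM132, 136673 to 165104 for AM608 and 98269 to 146155 for RCD, where libraries 3 and 5 were the lowest.

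let-7f-5p and let-7g-5p carried most of this amount. Over the 24 libraries let-7f-5p averaged 50564 CPM and ranked 5 among the 421 tested miRNAs, and let-7g-5p averaged 44225 CPM. let-7f-5p exceeded let-7g-5p in 22 of 24 libraries, but their ranges overlapped in AM132 and RCD. let-7a-5p (16680.5 CPM), let-7c-5p (12277) and let-7d-5p (8838) followed, and this order held within each of the 24 libraries. let-7d-5p and let-7i-5p (7817 CPM) were close, with let-7d-5p higher in 19 of 24 libraries and in only 4 of 8 from RCD. let-7b-5p averaged 3971 CPM. miR-98-5p and let-7e-5p were the scarcest, at 481 and 366 CPM, and their ranks turned with the group: miR-98-5p was higher in 8 of 8 AM132 and 8 of 8 AM608 libraries and in 3 of 8 RCD libraries. These are levels of reads, not of molecules, and the efficiency of adapter ligation also differs between miRNAs.

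**Figure D1:**
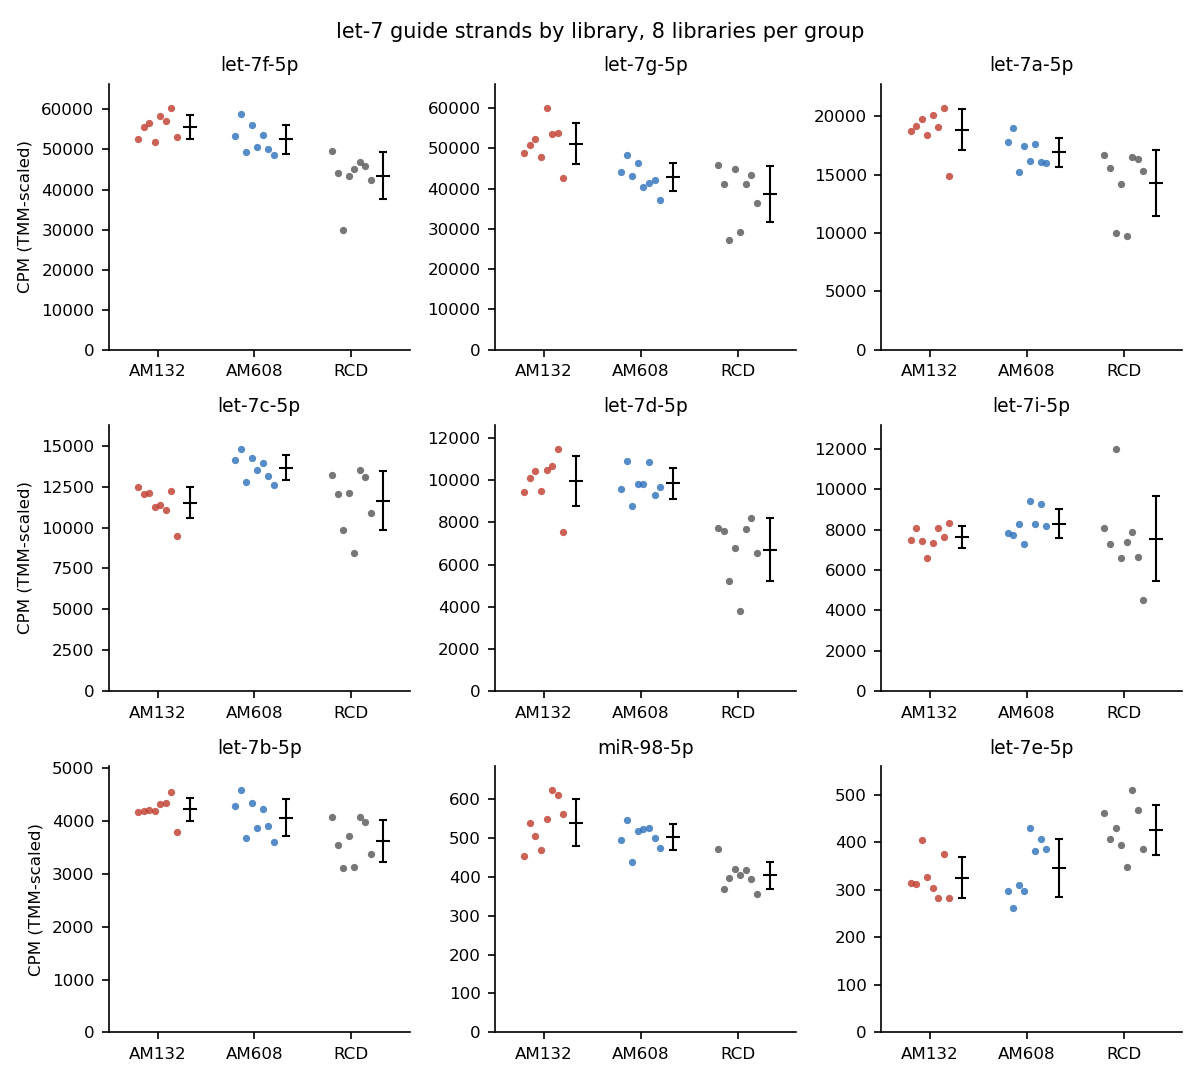
CPM (linear axis from 0) of each let-7 guide strand in the 24 libraries, in order of mean level, with AM132, AM608 and RCD from left to right; points are libraries and the bar to their right is the mean ± SD of 8. let-7d-5p and miR-98-5p sit lower in RCD, let-7e-5p sits higher in RCD, and let-7c-5p in AM132 lies below all AM608 libraries.

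In obese liver with the control oligonucleotide against lean liver, 4 of the 9 let-7 guide strands were higher by modest amounts, 1 was lower and 4 were not called. AM608 against RCD called let-7d-5p, miR-98-5p, let-7f-5p and let-7c-5p higher and let-7e-5p lower at an edgeR adjusted p below 0.05, beside 28.7% of all tested miRNAs called in either direction (13.5% higher, 15.2% lower). The median log2 fold change of the 9 was 0.23, against −0.03 over all 421 tested miRNAs. When counts were scaled by library totals alone, 7 members were called, all higher, and 4 of these were among the 5 called with TMM.

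let-7d-5p, made from the cluster on chromosome 13 and known to repress Hmga2, changed most. Its values ran from 8799 to 10901 CPM in AM608 (median 9748) and from 3809.8 to 8222 CPM in RCD (median 7203). The groups did not overlap, which was the case for 9.26% of all tested miRNAs (4.04% higher, 5.23% lower). The mean was 9849 ± 722 CPM in AM608 and 6701 ± 1494 CPM in RCD, a difference in log2 level (log2 fold change) of 0.56 (edgeR adjusted p = 5.83e-04, SE 0.116, n = 8 each), or 47.0% higher.

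miR-98-5p, the family member encoded in an intron of Huwe1, had 439 to 545 CPM in AM608 (median 508) and 355 to 471 CPM in RCD (median 401). Of the 8 AM608 libraries 7 lay above every RCD library. The log2 fold change was 0.32 (edgeR adjusted p = 0.00123, SE 0.0712). let-7f-5p, which shares that intron through 1 of its hairpins, had 48560.2 to 58925 CPM in AM608 (median 52000.0) and 30011 to 49630.2 CPM in RCD (median 44659). Here 6 of 8 AM608 libraries were above every RCD library, and the log2 fold change was 0.28 (edgeR adjusted p = 0.0058, SE 0.0738). With no filter on low counts the let-7f-5p call was lost (0.24, edgeR adjusted p = 0.0518).

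let-7c-5p, studied in mice as a regulator of macrophage polarization, had 12625 to 14805 CPM in AM608 (median 13758) and 8469.9 to 13547 CPM in RCD (median 12100.1). Every AM608 library was above the RCD median, yet the groups overlapped, and the log2 fold change was 0.23 (edgeR adjusted p = 0.0343, SE 0.0805). That call was lost without RCD library 3 (0.19, edgeR adjusted p = 0.0653) or AM608 library 1, and in 8 of 11 other alternatives, among them RLE factors (edgeR adjusted p = 0.0698) and DESeq2 (adjusted p = 0.0641).

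let-7e-5p moved the other way. It had 261 to 429.6 CPM in AM608 (median 345) and 348 to 509 CPM in RCD (median 419), with 4 of 8 AM608 libraries below every RCD library. The log2 fold change was −0.30 (edgeR adjusted p = 0.035, SE 0.106). The threshold was missed in 10 of the 24 fits that each omitted 1 library (AM132 library 2, AM608 library 1, 2, 3 or 4, RCD library 1, 2, 4, 6 or 7, edgeR adjusted p up to 0.106), with library totals (−0.22, edgeR adjusted p = 0.262) and with no filter (−0.32, edgeR adjusted p = 0.0656). The 8 AM608 values fell into libraries 1 to 4, at 261 to 309 CPM, and libraries 5 to 8, at 382 to 429.6 CPM. Libraries 5 to 8 lay within the RCD range, so the call rests on AM608 libraries 1 to 4. The sources used here do not say whether the library numbers mark a batch, and its part was not tested.

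The other 4 members were not called in AM608 against RCD. let-7a-5p had 15196 to 18982 CPM in AM608 (median 16787) and 9740.2 to 16678 CPM in RCD (median 15439.6), and let-7b-5p had 3595 to 4582 CPM in AM608 (median 4067) and 3107 to 4081 CPM in RCD (median 3626). For each of these members 4 of 8 AM608 libraries lay above every RCD library. let-7a-5p and let-7b-5p had log2 fold changes of 0.24 (SE 0.101) and 0.16 (SE 0.0661) with edgeR adjusted p of 0.0761 and 0.0648. Leaving out 1 library brought let-7a-5p past the threshold in 5 of 24 fits (without AM608 library 3 or RCD library 1, 2, 6 or 7) and let-7b-5p in 7 (without AM132 library 2, AM608 library 3 or 7, or RCD library 1, 4, 6 or 7), with edgeR adjusted p down to 0.044 and 0.0229. With library totals let-7a-5p, let-7b-5p and let-7g-5p passed as well (0.31, 0.22 and 0.22). let-7g-5p had 37183 to 48359 CPM in AM608 and 27277 to 45799.6 CPM in RCD. let-7g-5p and let-7i-5p had 0.15 (SE 0.0956) and 0.14 (SE 0.119), with edgeR adjusted p of 0.257 and 0.42. let-7i-5p, reported in human cholangiocytes as a repressor of TLR4, was called once RCD library 3 was left out, as the let-7c-5p call was lost. Without that library the let-7i-5p log2 fold change was 0.26 (edgeR adjusted p = 0.0193). RCD library 3 held 11989 CPM of let-7i-5p and the other RCD libraries 4515 to 8091, while AM608 ran from 7297 to 9419.7 CPM.

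RCD library 3 stood apart in its makeup as well. The 8 neuronal marker miRNAs summed to 2852 CPM in it and to 352 to 545 CPM in the other RCD libraries, 418 to 539 in AM132 and 509 to 623 in AM608. Most of the sum in AM132 and AM608 was miR-128-3p (459 and 511 CPM on average), while in RCD library 3 miR-218-5p led with 1389 CPM. Its 3 leukocyte markers in the table summed to 1006 CPM, against at most 281 in the other RCD libraries. Most of that sum was miR-150-5p (735 CPM), followed by miR-155-5p (236 CPM), while miR-223-3p (34.8 CPM) lay below its RCD mean of 39.3. The 5 hepatocyte markers in RCD library 3 summed to 263338 CPM, the lowest of all 24 libraries. RCD library 3 also had the lowest let-7f-5p (30011 CPM), let-7g-5p (27277 CPM) and let-7b-5p (3107 CPM) values of its group. miR-124-3p, a defining neuronal miRNA, was at 0 in 16 of the 24 libraries and at 8.47 CPM in RCD library 3. It was not confined to that library. RCD library 5 held 1.34 CPM of it, while the mean was 0 for AM132 and 0.03 for AM608. RCD averaged 2.05 CPM, more than libraries 3 and 5 alone would give. For miR-9-5p, RCD libraries 3 and 5 held 530 and 31.9 CPM, above the obese group means of 2.93 (AM132) and 4.34 (AM608). The RCD mean of 83.1 CPM is more than these libraries would give with the others at the obese means. Leaving out RCD library 3 therefore does not remove these miRNAs from RCD. miR-128-3p and miR-218-5p in RCD library 5 lay below both obese group means, and miR-129-5p lay between them. Without RCD library 3, 5 members were again called in AM608 against RCD (4 higher, with let-7i-5p in place of let-7c-5p, and 1 lower). The log2 fold changes there were 0.51 for let-7d-5p, 0.31 for miR-98-5p and 0.21 for let-7f-5p, and all 3 passed the threshold. The endothelial markers, miR-126a-3p and miR-126a-5p, summed to 41239 to 47918 CPM in AM608 and 28538 to 43231 CPM in RCD. They went opposite ways. miR-126a-3p had a higher mean in AM608 (43474 CPM) than in RCD (35570), and miR-126a-5p a lower one (806 against 900). The part of other cell types in these differences was not tested, and fewer cells of a type cannot be told apart from less RNA per cell in whole liver.

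**Figure D2:**
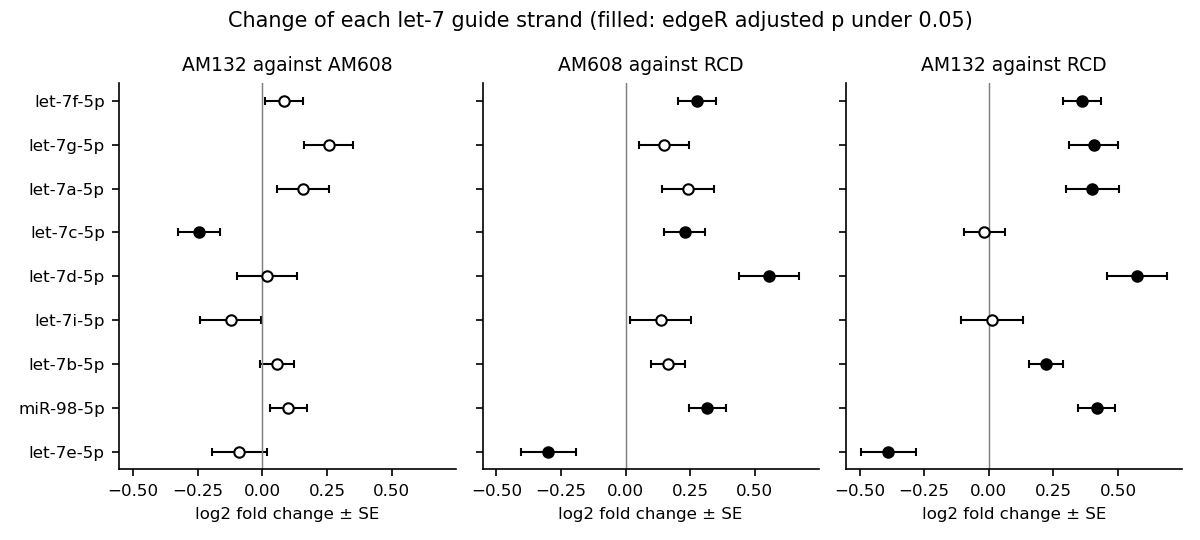
log2 fold change (horizontal axis, bars are the SE) of each let-7 guide strand in the 3 comparisons, with filled points at an edgeR adjusted p below 0.05. let-7c-5p is the filled point below 0 in AM132 against AM608 (−0.25), and let-7e-5p is the filled point below 0 in both comparisons with RCD.

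AM132 was set against AM608 to ask how the family differed between the obese livers given either oligonucleotide. let-7c-5p passed the threshold and the other 8 members did not: 1 of 9 members was called, as lower in AM132, beside 12.4% of all tested miRNAs called (4.04% higher, 8.31% lower). The median log2 fold change of the 9 was 0.06, close to 0.05 over all 421 miRNAs. let-7c-5p had 9500.1 to 12468 CPM in AM132 (median 11711) and 12625 to 14805 CPM in AM608 (median 13758). All 8 AM132 libraries lay below all 8 AM608 libraries, as groups did not overlap for 6.65% of all tested miRNAs (1.66% higher, 4.99% lower). The mean was 11517 ± 958 CPM in AM132 and 13657 ± 763 CPM in AM608, a log2 difference of −0.25 (edgeR adjusted p = 0.0448, SE 0.0805, n = 8 each).

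The call lay close to the threshold. It was missed in 8 of the 24 fits that each omitted 1 library (AM132 library 3, 4, 5, 6, 7 or 8, AM608 library 1 or 5, edgeR adjusted p up to 0.101) and when the scaling was computed without the 9 let-7 rows (edgeR adjusted p = 0.064) or no filter on low counts was applied (edgeR adjusted p = 0.181). Its direction was negative in each of those fits, with log2 fold changes from −0.30 to −0.21 over the 24 fits that left out 1 library. Where RCD libraries 3 and 5 and AM132 library 8 were all left out, a choice made after seeing the data, 3 members passed, let-7c-5p lower and let-7g-5p and let-7a-5p higher.

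let-7g-5p, which is made from a hairpin within Wdr82 and is the second most abundant member, was the nearest to a call in the other direction. It had 42705 to 60067 CPM in AM132 (median 51496) and 37183 to 48359 CPM in AM608 (median 42686). Of the 8 AM132 libraries 6 lay above every AM608 library, with a log2 difference of 0.26 (edgeR adjusted p = 0.0795, SE 0.0957). It passed in a fit of these 2 groups alone (0.23, edgeR adjusted p = 0.0183) and with miRNAs under a mean CPM of 10 removed (edgeR adjusted p = 0.0389). With library totals its log2 difference was 0.015 (edgeR adjusted p = 0.92), and with no filter it was 0.25 (edgeR adjusted p = 0.245). let-7a-5p had 14872 to 20726 CPM in AM132 and 15196 to 18982 CPM in AM608 (0.16, edgeR adjusted p = 0.396), and 5 of 8 AM132 libraries lay above every AM608 library.

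The remaining 6 members had log2 fold changes between −0.12 (let-7i-5p) and 0.10 (miR-98-5p) in AM132 against AM608, with edgeR adjusted p from 0.436 to 0.931. let-7d-5p, the member that differed most between AM608 and RCD, had 7527 to 11482 CPM in AM132 and 8799 to 10901 CPM in AM608 (0.02, SE 0.115, edgeR adjusted p = 0.931). Levels in this comparison depend on the scaling, and TMM factors ran from 0.827 to 0.975 in AM132 and 0.963 to 1.24 in AM608. Under scaling by library totals alone the median of all tested miRNAs moved by −0.25, and 1 of the 9 members had a positive log2 fold change, against 6 with TMM. let-7b-5p and let-7f-5p were then lower in AM132 (−0.18 and −0.16, edgeR adjusted p = 0.0335 and 0.0223), and let-7c-5p was lower under both. The 5 hepatocyte markers summed to 494126 to 634259 CPM in AM132 and 322914 to 498691 CPM in AM608, and their part in these differences was not tested.

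Ratios of counts within a library do not depend on the scaling, and they set let-7c-5p apart from its closest relatives. The ratio of let-7c-5p to let-7a-5p, which differ by 1 base, was 0.612 ± 0.0326 for AM132, 0.809 ± 0.0232 for AM608 and 0.827 ± 0.0820 for RCD (SD, n = 8 each). It ran from 0.565 to 0.665 for AM132, 0.780 to 0.842 for AM608 and 0.708 to 0.988 for RCD, so every AM132 library lay below every library of the other groups. Likewise let-7c-5p over let-7b-5p, its neighbour on chromosome 15, was 2.73 ± 0.171 for AM132, 3.37 ± 0.110 for AM608 and 3.20 ± 0.216 for RCD. That ratio ran from 2.50 to 2.98 in AM132 and from 3.23 to 3.51 in AM608, while RCD reached down to 2.70. These ratios were chosen after their values had been seen and carry no test.

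As a share of the family, let-7c-5p held 7.21 ± 0.507% of the let-7 guide counts for AM132, 9.17 ± 0.145% for AM608 and 9.19 ± 0.644% for RCD. let-7g-5p held 32.0 ± 1.28% for AM132, 28.7 ± 1.13% for AM608 and 30.3 ± 2.14% for RCD. let-7f-5p held 34.9 ± 1.24% for AM132, 35.3 ± 0.463% for AM608 and 34.4 ± 3.34% for RCD. let-7e-5p, called lower in both obese groups against RCD though unsteadily in AM608, held 0.204 ± 0.0246% for AM132, 0.234 ± 0.0510% for AM608 and 0.339 ± 0.0453% for RCD. Its highest share was 0.247% in AM132 and 0.2970% in AM608, and its lowest share in RCD was 0.2974%. The obese groups thus did not overlap with RCD in this share, by a very narrow margin for AM608. A share also falls when other members rise, and in CPM let-7e-5p overlapped RCD in both obese groups. let-7d-5p held 6.21 ± 0.401% for AM132, 6.61 ± 0.382% for AM608 and 5.25 ± 0.737% for RCD.

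**Figure D3:**
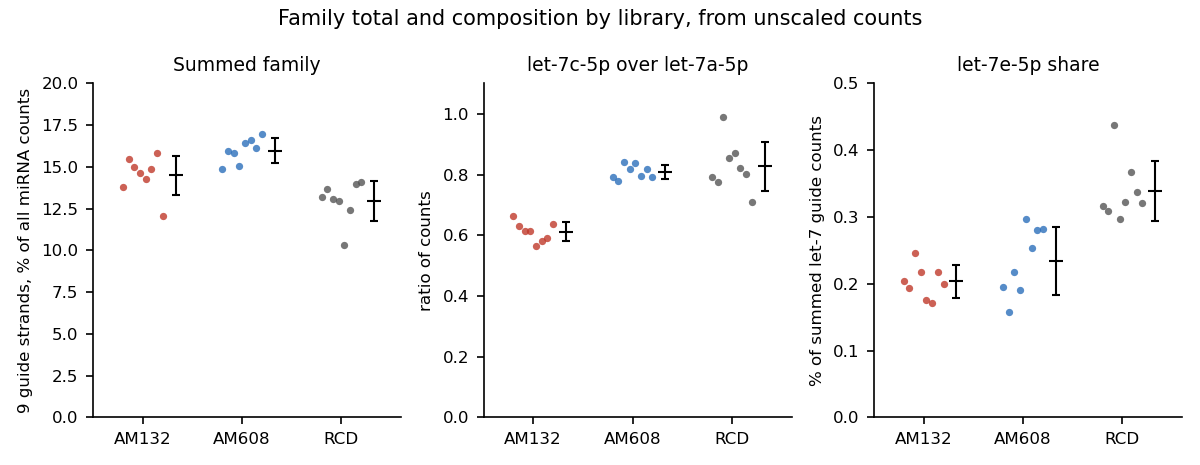
The summed share, the let-7c-5p to let-7a-5p ratio and the let-7e-5p share, from unscaled counts, in each library, with AM132, AM608 and RCD from left to right, points for libraries and bars for the mean ± SD of 8. The summed family took 16.0% of miRNA counts in AM608 and 12.98% in RCD, the ratio of let-7c-5p to let-7a-5p is lowest in all 8 AM132 libraries, and the share of let-7e-5p is lower in AM132 and AM608 than in RCD.

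In obese liver given the oligonucleotide against miR-132, set against lean liver, 7 members were called. AM132 against RCD called 6 of 9 members higher (let-7d-5p, miR-98-5p, let-7g-5p, let-7a-5p, let-7f-5p and let-7b-5p) and let-7e-5p lower, beside 34.2% of all tested miRNAs called (15.4% higher, 18.8% lower). The median log2 fold change was 0.36 for the 9 and 0.03 for all 421 miRNAs. With library totals, which moved the median of all tested miRNAs by −0.19, 5 members were called (4 higher, 1 lower), fewer than the 7 called in AM608 against RCD under that scaling. The endothelial markers summed to 42050.1 to 58548 CPM in AM132 (mean 46583) and 28538 to 43231 CPM in RCD (mean 36470.3). The sum was mostly miR-126a-3p (45796 CPM in AM132, 35570 in RCD), while miR-126a-5p had a lower mean in AM132 (787 CPM) than in RCD (900). The 5 hepatocyte markers summed to 494126 to 634259 CPM in AM132 (mean 554787) and 263338 to 542385 CPM in RCD (mean 445298). Among them miR-122-3p alone had a lower mean in AM132 (863 CPM) than in RCD (991). The part of either cell type was not tested. This comparison shares its RCD libraries with AM608 against RCD and its AM132 libraries with AM132 against AM608, so the 3 sets of values are not independent.

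miR-98-5p had the smallest p, with 453 to 622 CPM in AM132 (median 543) against 355 to 471 CPM in RCD (median 401), a log2 difference of 0.42 (edgeR adjusted p = 5.74e-05, SE 0.0712). Of the 8 AM132 libraries 6 lay above every RCD library. let-7f-5p had 51912 to 60432 CPM in AM132 (median 56049), and all 8 libraries lay above the 30011 to 49630.2 CPM of RCD, beside 8.79% of all tested miRNAs whose groups did not overlap (3.09% higher, 5.7% lower). Its log2 fold change was 0.36 (edgeR adjusted p = 4.49e-04, SE 0.0739). let-7d-5p had the largest change of the 9, 0.57 (edgeR adjusted p = 3.65e-04, SE 0.116), and 7 of 8 AM132 libraries lay above every RCD library. AM132 library 8, at 7527 CPM, was the exception.

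let-7g-5p and let-7a-5p changed by nearly the same amount, 0.41 (edgeR adjusted p = 0.00169, SE 0.0958) and 0.40 (edgeR adjusted p = 0.00313, SE 0.102), each with 7 of 8 AM132 libraries above every RCD library. let-7b-5p was higher by 0.22 (edgeR adjusted p = 0.0116, SE 0.0661), a call lost without RCD library 3 (0.16, edgeR adjusted p = 0.0735), with library totals (0.04, edgeR adjusted p = 0.641) and with no filter (0.18, edgeR adjusted p = 0.165). With library totals let-7a-5p also missed the threshold (0.23, edgeR adjusted p = 0.0732). let-7e-5p had 282 to 404 CPM in AM132 (median 314) and 348 to 509 CPM in RCD (median 419), with 6 of 8 AM132 libraries below every RCD library (−0.39, SE 0.106, edgeR adjusted p = 0.0060). let-7c-5p and let-7i-5p were not called (−0.02 and 0.01, SE 0.0804 and 0.119, edgeR adjusted p = 0.878 and 0.94).

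The 9 profiles over the 24 libraries were compared by the root mean square (RMS) of the difference in log2 CPM after each was centred on its own mean. let-7a-5p and let-7g-5p were the closest pair (RMS 0.11 on the log2 scale), and they differ by 2 bases. let-7b-5p and let-7f-5p were next closest (0.11), and let-7d-5p and let-7e-5p were the farthest apart (0.51). For 7 of the 9 members let-7e-5p was the farthest. let-7a-5p and let-7e-5p differ by 1 base and lay at an RMS of 0.42.

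**Figure D4:**
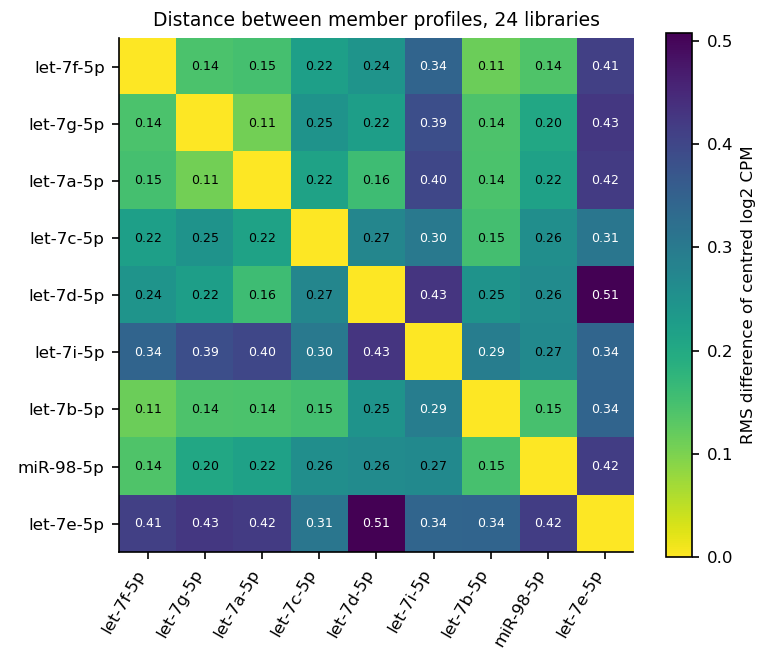
RMS difference of centred log2 CPM over 24 libraries for every pair of members, ordered by mean level, with darker cells for profiles further apart. let-7f-5p, let-7g-5p, let-7a-5p and let-7b-5p lie at 0.11 to 0.15 from each other, while the closest members to let-7e-5p and let-7i-5p lie at 0.31 and 0.27.

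Outside the family, the 5 miRNAs whose profiles lay nearest to that of the summed guide strands were miR-423-3p (RMS 0.10), miR-423-5p (0.14), miR-30d-5p (0.15), miR-148b-3p (0.15) and miR-103-3p (0.15), where the median over the 412 tested miRNAs outside the family was 0.46. The measure favours miRNAs that vary little. For let-7e-5p and let-7i-5p, 30 and 34 miRNAs outside the family had profiles closer to theirs than any other member. For let-7b-5p and let-7c-5p 1 outside miRNA each did so, by a narrow margin, and for the other 5 members none did. The closest to let-7e-5p was miR-125a-5p (RMS 0.13), its neighbour in Spaca6, and the closest to let-7i-5p was miR-128-3p (0.16), which is also on the neuronal marker list. miR-125a-5p and miR-128-3p were named after their values had been seen.

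Of 5 guide strands encoded beside let-7 hairpins, 1 was called higher and none lower in AM132 against AM608, where 12.4% of all tested miRNAs were called. None was called in AM608 against RCD (28.7% of all tested), and 1 was higher and 1 lower in AM132 against RCD (34.2% of all tested). miR-99a-5p, which lies 656 bases from Mirlet7c-1, averaged 27054 ± 2322 CPM for AM132, 21038 ± 2275 for AM608 and 19739 ± 4164 for RCD. It was higher in AM132 than in AM608 by a log2 difference of 0.36 (edgeR adjusted p = 0.0142, SE 0.0998), in the direction opposite to let-7c-5p. All 8 AM132 libraries lay above all 8 of AM608, where groups did not overlap for 6.65% of all tested miRNAs (1.66% higher). As let-7c-5p also has the hairpin Mirlet7c-2, these counts do not show opposite directions at the Mir99a locus itself. miR-99b-5p, from the let-7e cluster, was lower in AM132 than in RCD (−0.28, SE 0.0971, edgeR adjusted p = 0.0298), and miR-125a-5p from the same cluster had −0.31 (edgeR adjusted p = 0.067, SE 0.129). miR-100-5p and miR-125b-5p, beside Mirlet7a-2, lay between −0.08 and 0.14 in the 3 comparisons and were not called.

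Of the 12 counted passenger strands of these hairpins, 10 were tested. In AM132 against AM608 7 were lower, beside 8.31% of all tested miRNAs called lower. In AM132 against RCD 7 were lower, beside 18.8% of all tested, while none was called in AM608 against RCD (28.7% of all tested in either direction). Each count of 7 includes let-7f-1-3p and let-7f-2-3p, which averaged only 1.61 and 0.86 CPM in AM132, against 8.11 and 5.63 in AM608. These rows passed the filter on low counts only through the groups where they were higher, which limits the counts. The 10 tested passenger strands had, in AM132 against AM608, a median log2 fold change of −1.34 against 0.06 for the guides. let-7c-2-3p and let-7a-1-3p have the same mature sequence (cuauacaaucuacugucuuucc, shown because it makes their rows inseparable), and their counts differed by at most 2 reads in 24 of 24 libraries. The 10 tested and each count of 7 lower hold both rows, so that 1 sequence is counted in 2 rows. let-7a-1-3p averaged 11.96 ± 6.33 CPM for AM132, 177 ± 14.2 for AM608 and 199 ± 59.9 for RCD. let-7a-5p outnumbered let-7a-1-3p by a ratio of 1839 ± 611 for AM132, 95.8 ± 6.17 for AM608 and 74.5 ± 12.5 for RCD. As let-7c-2-3p shares that sequence, this is not the ratio of a single hairpin. In AM132, AM608 and RCD the ratio averaged 614, 146 and 126 for let-7b, and 18.2, 10.1 and 8.10 for let-7d. It averaged 47.7, 30.0 and 31.9 for let-7e. For let-7i it was lowest in AM132, at 1617 ± 289 against 2157 ± 512 in AM608 and 2259 ± 715 in RCD. For miR-98 the ratio of guide to passenger was 103 ± 20.6 for AM132, 97.3 ± 16.1 for AM608 and 94.3 ± 31.8 for RCD, within the spread between libraries.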

How the data were processed

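Liver RNA (RIN above 8.4) was isolated by miRNeasy kit, 300 ng went into NEBNext small RNA libraries, and a NextSeq 500 sequenced them, per the labels' protocols. The table holds raw counts of reads per mature miRNA, as deposited by the authors. Per the submitters' processing notes, FastQC was used. The aligner, build and read assignment were not given in the sources used here. Reads carried no stated molecular identifiers, so they are not independent molecules and limits cover counting error only. Hypothalamus and the deposited table of transfer RNA fragments were not analysed here.

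Libraries were grouped by title. Over 84 pairs of libraries of 1 group, the smallest chi-square was 30.2 per degree of freedom, so none was taken for a duplicate. The labels do not tie each library to an animal, so p-values reflect only how these samples vary, which may be technical. The test was that of edgeR 4.0.16 under R 4.3.3 (robust quasi-likelihood F test, TMM factors, filterByExpr, group as the only term, all 24 libraries), with Benjamini-Hochberg adjustment over 421 miRNAs and a threshold of 0.05. The SE is the absolute log2 fold change over the square root of F. CPM is relative to the TMM-scaled sum of tested counts, and profiles use log2 CPM with a prior count of 2. Alternatives were RLE factors, library totals, other filters, DESeq2 1.42.0, voom in limma 3.58.1, only 2 groups in the fit, a replicate block, scaling without let-7, near-identical members summed, and libraries left out. The fit was run on simulated data whose planted changes were larger than most member changes here. It therefore does not show how often changes of that size are found. The members, lists and alternatives were chosen with earlier results of these data known. Named are all 9 members, other miRNAs with their seed, their passenger strands, 5 cluster neighbours, the 5 profiles nearest to the sum and each member's closest member. Sequences and hairpin coordinates are from RefSeq and host genes from GENCODE, both on GRCm38.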

Additional observations from a re-analysis of the deposited data

Results flagged for a closer look

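Of 60 sets of 8 libraries tested for an extreme value (each member's CPM and share of let-7 counts, the sum and the ratio of let-7c-5p to let-7a-5p, in each group), 11 had a lowest or highest library whose gap to the next was over 0.526 of the range. Chance gives such a gap in about 1 in 20 groups, and the sets share libraries. The 11 lay in 3 libraries.

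AM132 library 8 was the lowest of its group for let-7a-5p (14872 CPM, next 18374) and let-7c-5p (9500.1 CPM, next 11107). Its shares of the let-7 counts were the lowest for let-7a-5p (10.6%) and let-7d-5p (5.35%) and the highest for let-7f-5p (37.8%) and let-7i-5p (5.91%). RCD library 3 was the lowest of its group for let-7f-5p (30011 CPM, next 42295) and the highest for the share of let-7i-5p (12.2%, next 6.85%). RCD library 5 had the lowest shares of let-7c-5p (7.87%) and let-7d-5p (3.54%) and the highest share of let-7f-5p (42.0%, next 35.2%). The cause was not tested.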

How the results depend on the processing

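Members called in AM132 against AM608 numbered 1, and 3 with library totals (all lower), 0 with no filter and 0 with scaling computed without let-7. The count was 2 at a mean CPM of at least 10, 2 with only these 2 groups in the fit, 2 without RCD library 3 and AM132 library 8, and 3 without those and RCD library 5, an alternative chosen after seeing the data. Leaving out single libraries gave 0 to 1. AM608 against RCD called 5, but 2 with no filter, 7 with library totals (all higher, 4 shared with the 5), and 3 to 6 with single libraries left out (3 without AM608 library 1). AM132 against RCD called 7, and 5 with library totals. Over all miRNAs, AM132 against AM608 called 52, and 91 with library totals (8 higher, 83 lower, against 17 and 35) and 87 with only these groups, while AM132 against RCD called 144, and 94 at a mean CPM of at least 10. The summed CPM with library totals was 145034 in AM132 and 159824 in AM608.

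Signs turned mostly near 0. In AM132 against AM608, library totals gave −0.082 for let-7a-5p, −0.18 for let-7b-5p, −0.23 for let-7d-5p, −0.16 for let-7f-5p and −0.15 for miR-98-5p, and the fit of 2 groups −0.012 for let-7d-5p. For let-7i-5p in AM132 against RCD, RLE factors gave −0.029, library totals −0.20, no filter −0.014, the CPM minimum −0.060, DESeq2 −0.029 and the 2 groups −0.021. The 5 near-identical members summed gave 0.038 in AM132 against AM608, 0.29 in AM132 against RCD and 0.25 in AM608 against RCD, so that let-7c-5p and let-7e-5p, minor parts of that sum, lost their sign by construction. With single libraries left out, let-7c-5p in AM132 against RCD ran from −0.091 to 0.026, let-7d-5p in AM132 against AM608 from −0.043 to 0.068 and let-7i-5p in AM132 against RCD from −0.089 to 0.11. The let-7d-5p and miR-98-5p calls against RCD held in every alternative run. For the other changes the cause was not tested.

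Replicate numbers showed no steady pairing of the libraries. Deviations of same-numbered libraries correlated at −0.42 to 0.40 over 24 pairs, with 10 above 0.1. Of the 24 libraries 5 correlated best with their own number. Such a check cannot exclude a pairing or a batch shared by number. With the replicate block, 6 members were called in AM608 against RCD, 7 in AM132 against RCD and 1 in AM132 against AM608, and let-7b-5p passed in AM608 against RCD (0.17, edgeR adjusted p = 0.0485).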
